A study of Octopus bimaculoides with 6 samples.

Results

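The KDM6A family of the California two-spot octopus, Octopus bimaculoides, comprised 3 of the 40327 transcripts that were quantified. They were chosen by name from the study's table of the histone methylation machinery: KDM6A (Ocbimv22002927m, 2598 bases), KDM6A.1 (Ocbimv22018482m, 888 bases) and KDM6A.2 (Ocbimv22020383m, 4857 bases). All 3 were detected in each of the 6 libraries, so no member was lost to a filter on low values. Whether they are separate genes or pieces of one gene split between models was not checked, since no genome was used here. The summed family, each share of it and the ratios between members are therefore values of these 3 models.

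RNA was taken from transverse sections of the first left arm of 1 adult male (OB-5), cut 1.5 cm (distal), 3.5 cm (medial) and 5.5 cm (proximal) from the end of the arm. It was also taken from the last 1.5 cm of the first left arm of another adult male (OB-2) and of an adult female (OB-9), called the male tip and the female tip, and from 1 whole hatchling at 30 days post fertilization (dpf). The animals carried no treatment or genetic change that the labels name. Each of these conditions was 1 library, so no difference below has a replicate check, no test between conditions was possible, and the piece of arm, the animal and, for the female tip, the sex change together and cannot be told apart. The labels do not say whether the tips were prepared or sequenced with the sections, so a batch cannot be told apart either. The 3 sections came from a single arm. Every piece was bulk tissue in which skin, muscle, nerve cord and suckers were not separated, so fewer cells of a type and less RNA per cell cannot be told apart.

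KDM6A proteins, also called UTX in vertebrates, remove methyl groups from lysine 27 of histone H3 (H3K27), a mark of repressed chromatin when it is di- or trimethylated. The mark is written by Polycomb repressive complex 2 (PRC2), in which EZH2 is the methyltransferase and SUZ12 and EED are core partners. In mammals UTX is a subunit of the KMT2C and KMT2D complexes, which methylate lysine 4 of the same histone at enhancers and share the partner ASH2L with other such complexes. KDM6A can therefore remove a repressive mark where its partner enzyme adds an active one.

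Summed estimated counts ran from 3161353 in the distal section to 9081923 in the hatchling. The libraries were depleted of ribosomal RNA, and non-coding targets took between 39.8% (medial section) and 63.5% (female tip) of the abundance, expressed as TPM (abundance per length, scaled to a fixed total). The distal section (63.4%), the male tip (61.6%) and the hatchling (63.4%) were near the upper end of this range, and the proximal section (47.3%) was not. A library with more non-coding RNA has lower deposited TPM for each coding transcript. Each level of a KDM6A family member is therefore given on the deposited scale and as coding TPM, recomputed over the 38556 gene-model targets. Levels of other transcripts are mostly given in coding TPM only. The correct labelling of the tissues could not be checked against marker genes, because none was named among the transcripts used here.

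KDM6A.1 was the most abundant member per length in every library. Its deposited level was 14.6 TPM (distal), 21.3 TPM (medial) and 16.5 TPM (proximal) along the sectioned arm. The tips had 30.1 TPM (male) and 32.4 TPM (female), and the hatchling had 14.9 TPM. In coding TPM these levels were 40.0, 35.3 and 31.4 for the sections in the same order, 78.3 and 88.7 for the male and female tip and 40.6 for the hatchling. Both tips lay above the other 4 libraries on either scale. The estimated counts behind these levels ran from 70.5 in the distal section to 246 in the female tip, and the 95% counting interval (Wilson) of the lower tip, 68.7 to 89.1 coding TPM in the male, did not reach that of the next library, 35.7 to 46.0 in the hatchling.

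KDM6A, the member whose name in the table carries no suffix, had the second highest level in every library except the proximal section. Its deposited level was 7.65 TPM (distal), 10.0 TPM (medial) and 8.07 TPM (proximal) along the sectioned arm. The tips had 11.6 TPM (male) and 13.3 TPM (female), and the hatchling had 6.54 TPM. In coding TPM these levels were 20.9, 16.6 and 15.3 for the sections in the same order, 30.2 and 36.6 for the male and female tip and 17.9 for the hatchling. Both tips were again highest on either scale. Its estimated counts, 121 to 349, were whole numbers in every library, whereas an estimate that is not whole arises when reads are divided between targets.

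KDM6A.2, the longest of the transcripts, had the lowest level per length in every library except the proximal section. Its deposited level was 5.58 TPM (distal), 8.63 TPM (medial) and 8.67 TPM (proximal) along the sectioned arm. The tips had 8.02 TPM (male) and 9.20 TPM (female), and the hatchling had 5.36 TPM. In coding TPM these levels were 15.3, 14.3 and 16.5 for the sections in the same order, 20.9 and 25.2 for the male and female tip and 14.6 for the hatchling. The tips were highest on the coding scale only: on the deposited scale the medial and proximal sections lay between them. Its estimated counts ran from 141 to 454, and these, like those of KDM6A.1, were not whole. The division of reads between targets is therefore uncertain for both members, and the counting intervals do not cover it.

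**Figure D1:**
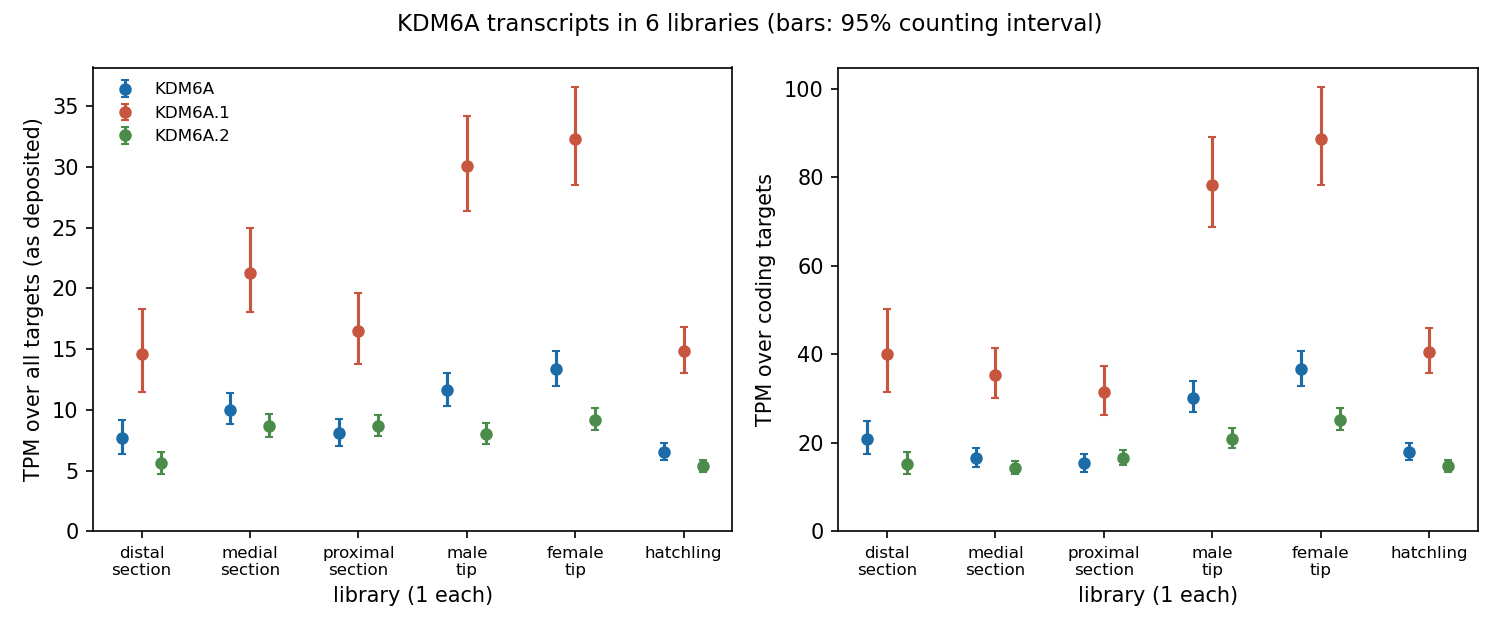
Level of KDM6A, KDM6A.1 and KDM6A.2 in each of the 6 libraries, in deposited TPM (left) and in TPM over coding targets (right), with 95% counting intervals as bars. KDM6A.1 is highest in every library and reaches 78.3 and 88.7 coding TPM in the male and female tips, against 31.4 to 40.6 in the other 4 libraries.

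The spread across libraries was taken as the highest level over the lowest. The highest deposited level was 2.04 times the lowest for KDM6A, 2.21 times for KDM6A.1 and 1.71 times for KDM6A.2, and in coding TPM the corresponding ratios were 2.39, 2.83 and 1.76. When the coding levels of KDM6A were ordered, the female tip exceeded the male tip 1.21-fold (95% counting interval 1.03 to 1.42) and the male tip exceeded the distal section 1.44-fold (1.17 to 1.79). The distal section, hatchling, medial section and proximal section followed, and no neighbours among these 4 differed beyond their counting error. For KDM6A.1 the order was female tip, male tip, hatchling, distal, medial and proximal section, and only the step from the male tip to the hatchling, 1.93-fold (1.61 to 2.32), exceeded counting error. For KDM6A.2 the steps from the female to the male tip, 1.21-fold (1.04 to 1.40), and from the male tip to the proximal section, 1.27-fold (1.09 to 1.47), exceeded it, and the other 3 libraries followed without a step that did. On deposited TPM the steps differed. The medial section exceeded the proximal section for KDM6A, 1.24-fold (1.03 to 1.49), and for KDM6A.1, 1.29-fold (1.01 to 1.64). The male tip exceeded the medial section beyond counting error for KDM6A.1, 1.41-fold (1.15 to 1.74), but not for KDM6A, 1.16-fold (0.98 to 1.38). For KDM6A.2 only the step from the male tip to the distal section, 1.44-fold (1.18 to 1.75), exceeded it. These intervals cover counting error and not differences between animals.

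A rank within the library does not depend on the scaling. KDM6A.1 lay above 89.2% (distal), 89.7% (medial) and 88.0% (proximal) of gene-model targets in the sections and above 91.1% in the hatchling. In the male tip it lay above 95.4% of them and in the female tip above 95.7%. KDM6A stood above 77.4% to 79.4% of targets in the sections, 81.1% in the hatchling and, in the tips, 85.6% (male) and 87.1% (female). KDM6A.2 ranked between 73.2% (distal section) and 80.4% (female tip), and the male tip (78.9%) and the proximal section (78.7%) were alike. The rank of EZH2, the PRC2 methyltransferase, was 78.8% to 80.2% in the sections, 82.4% in the hatchling and 83.6% and 84.4% in the male and female tips. SUZ12 ranked higher in the medial (78.4%) and proximal (79.6%) sections than in the male (73.1%) and female (73.4%) tips, and was lowest in the distal section (68.0%).

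**Figure D2:**
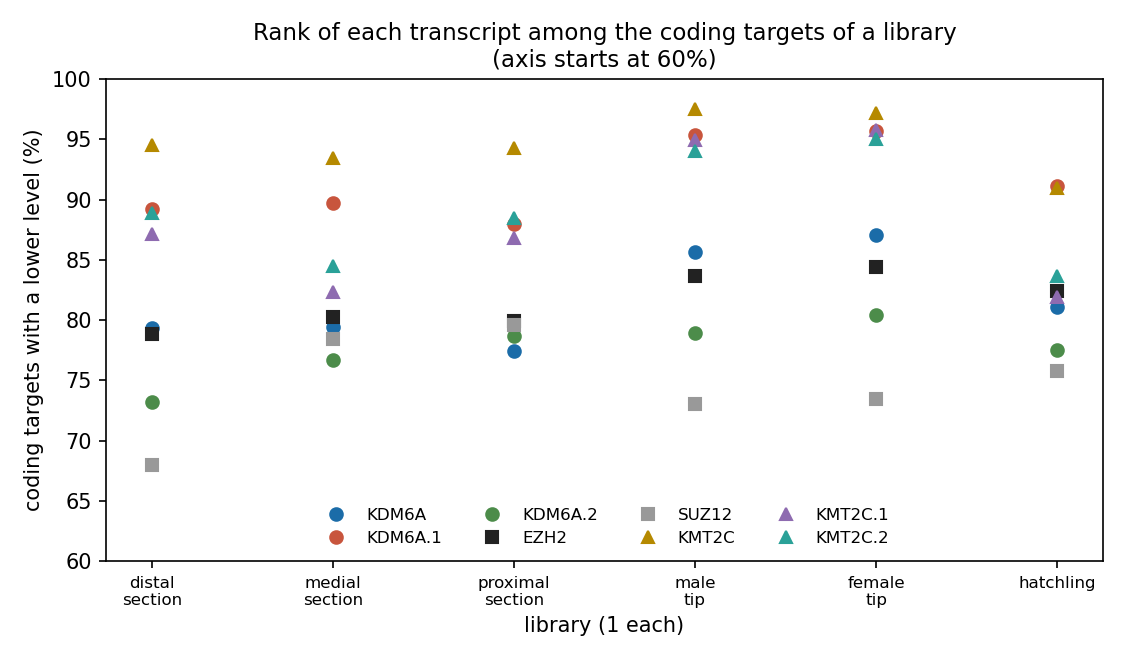
Share of gene-model targets with a lower level than each named transcript, in percent, for each of the 6 libraries. The vertical axis starts at 60%. KDM6A and KDM6A.1 stand highest in the tips (85.6% and 95.4% in the male tip), while SUZ12 stands lower there (73.1%) than in the medial section (78.4%).

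The tips were compared with the medial and proximal sections, pieces of the arm farther from its end. The mean of the tips over the mean of these sections was 1.65 for KDM6A.1 on deposited TPM (95% counting interval 1.42 to 1.92) and 2.50 on coding TPM (2.16 to 2.91). For KDM6A it was 1.38 (1.22 to 1.56) and 2.09 (1.85 to 2.37). For KDM6A.2 it was 0.99 (0.90 to 1.10) on deposited TPM and 1.50 (1.35 to 1.66) on coding TPM. Another scaling, the trimmed mean of M-values (TMM), gave 1.80 for KDM6A.1, 1.50 for KDM6A and 1.07 for KDM6A.2. KDM6A and KDM6A.1 were thus higher in the tips on all 3 scalings, and KDM6A.2 was level or higher.

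The scaling moved all transcripts together here, and the members are best read against that shift. The median log2 ratio of (TPM + 1) over gene-model targets was -0.02 on the deposited and 0.52 on the coding scale. On the same scales KDM6A had 0.43 and 1.02, KDM6A.1 had 0.69 and 1.30, and KDM6A.2 had -0.01 and 0.55, so KDM6A.2 lay at the median on both. KDM6A exceeded 71.7% of gene-model targets with at least 1 TPM on either side, KDM6A.1 exceeded 81.9% and KDM6A.2 exceeded 51.3%, on the coding scale. No member reached a 2-fold difference on the deposited scale, where 11.3% of all targets were at least 2-fold higher in the tips. On the coding scale 2 of the 3 members did, against 29.1% of gene-model targets, and with TMM none did, against 15.7% of all targets. All these shares are with 1 TPM added before the log, which understates the change of low transcripts.

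**Figure D3:**
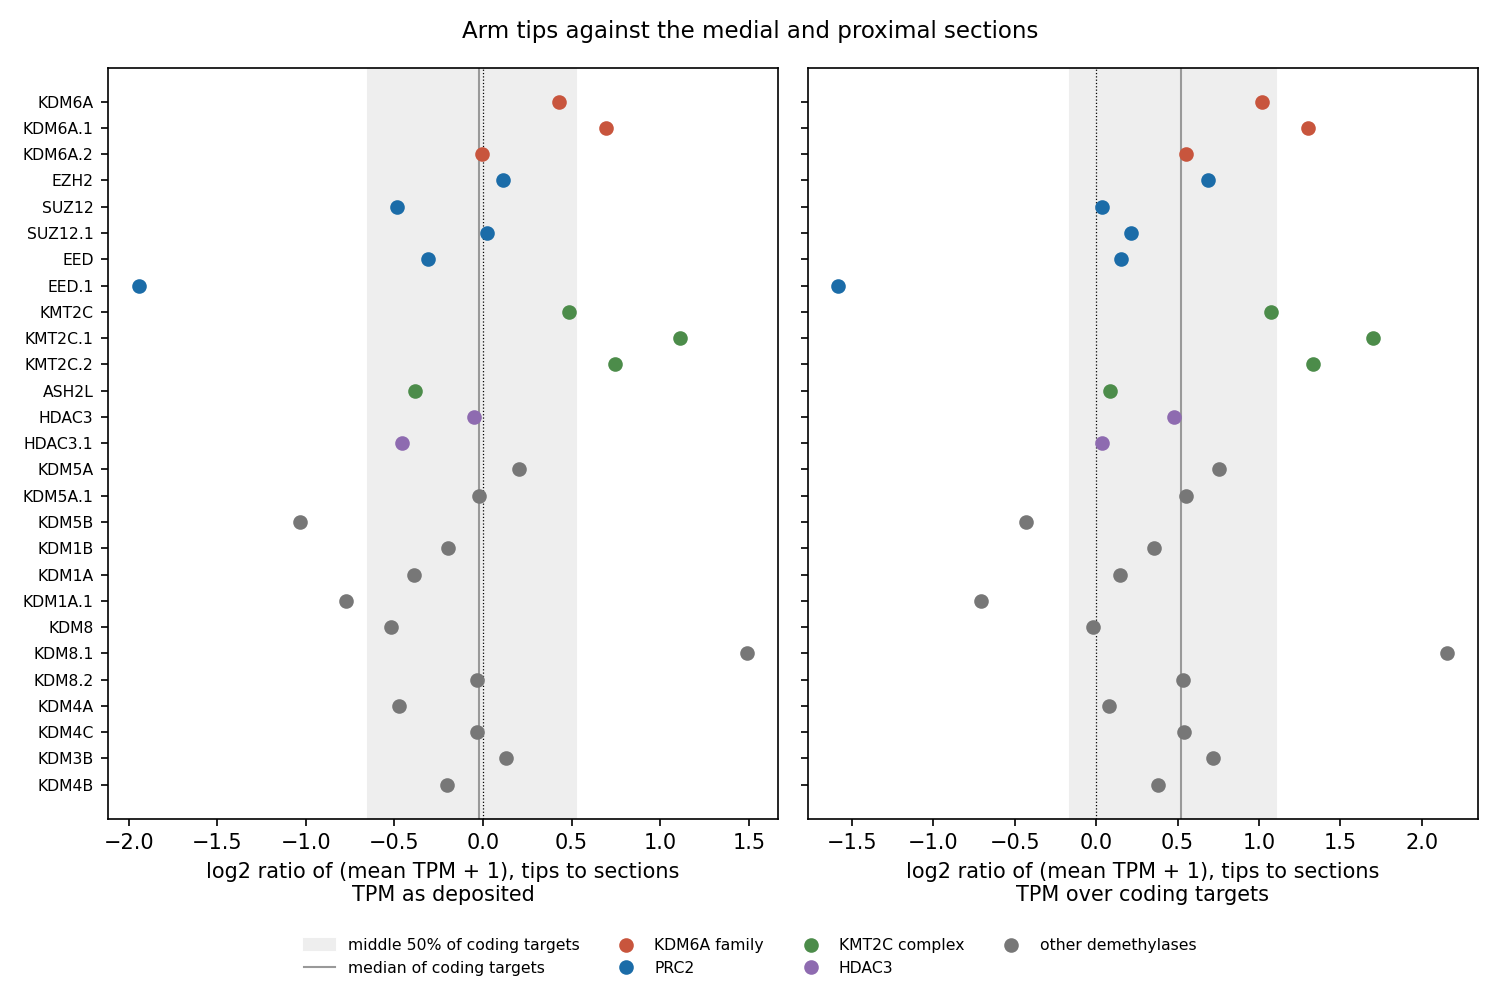
Log2 ratio of (mean TPM + 1) in the tips over the medial and proximal sections, on deposited TPM (left) and TPM over coding targets (right), for the KDM6A family, PRC2, the KMT2C complex, HDAC3 and the other histone demethylases. The grey band holds the middle 50% of gene-model targets and the grey line their median (-0.02 and 0.52). KDM6A.1 (0.69 and 1.30) lies above the band, KDM6A (0.43 and 1.02) within it and KDM6A.2 (-0.01 and 0.55) at its centre.

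The distal section and the tips were taken at nearly the same place on the arm and had nearly the same non-coding share, so their comparison, which was added after the values were seen, depended little on the scaling. The mean of the tips over the distal section was 2.14 for KDM6A.1 on deposited TPM (1.66 to 2.74) and 2.09 on coding TPM (1.63 to 2.68). It was 1.63 (1.34 to 1.98) and 1.60 (1.31 to 1.94) for KDM6A, and 1.54 (1.29 to 1.85) and 1.51 (1.26 to 1.81) for KDM6A.2. All 3 members were higher in the tips, and KDM6A.1 passed 2-fold on both scales, where 17.5% of all targets (deposited) and 22.4% of gene-model targets (coding) were at least 2-fold higher. With TMM it was 1.92-fold higher and did not pass, against 18.7% of all targets that did. The median log2 ratio of gene-model targets was 0.20 on the deposited and 0.24 on the coding scale, against 1.05 and 1.04 for KDM6A.1, 0.64 and 0.65 for KDM6A and 0.55 and 0.56 for KDM6A.2. The distal section is the shallowest library, and the section and the tips came from different animals, which cannot be told apart from the piece of arm.

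Ratios of 2 transcripts within a library are free of scaling and show whether the members moved by the same amount. KDM6A.1 to KDM6A was 1.91 (distal), 2.13 (medial) and 2.05 (proximal) along the sections, 2.59 (male) and 2.42 (female) for the tips and 2.27 for the hatchling. In the same order, KDM6A.1 to KDM6A.2 was 2.62, 2.47 and 1.91 for the sections, 3.75 and 3.52 for the tips and 2.77 for the hatchling. The tips had the highest value of both ratios. Relative to the medial and proximal sections, KDM6A.1 to KDM6A.2 was 1.68 times as high in the tips (95% counting interval 1.40 to 2.01) and KDM6A to KDM6A.2 was 1.40 times as high (1.19 to 1.64). For KDM6A.1 to KDM6A the factor was 1.20 (0.99 to 1.46), within counting error. Relative to the distal section alone these factors were 1.39 (1.02 to 1.89), 1.06 (0.81 to 1.38) and 1.31 (0.96 to 1.80) in the same order. KDM6A to KDM6A.2 was 1.45 in each tip and 1.37 in the distal section, so the tips did not exceed that section beyond counting error. KDM6A.1 made up 60.5% (male tip) and 58.9% (female tip) of the summed TPM of the family, and between 49.7% and 55.5% elsewhere. The intervals of these ratios do not cover the division of reads between targets.

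**Figure D4:**
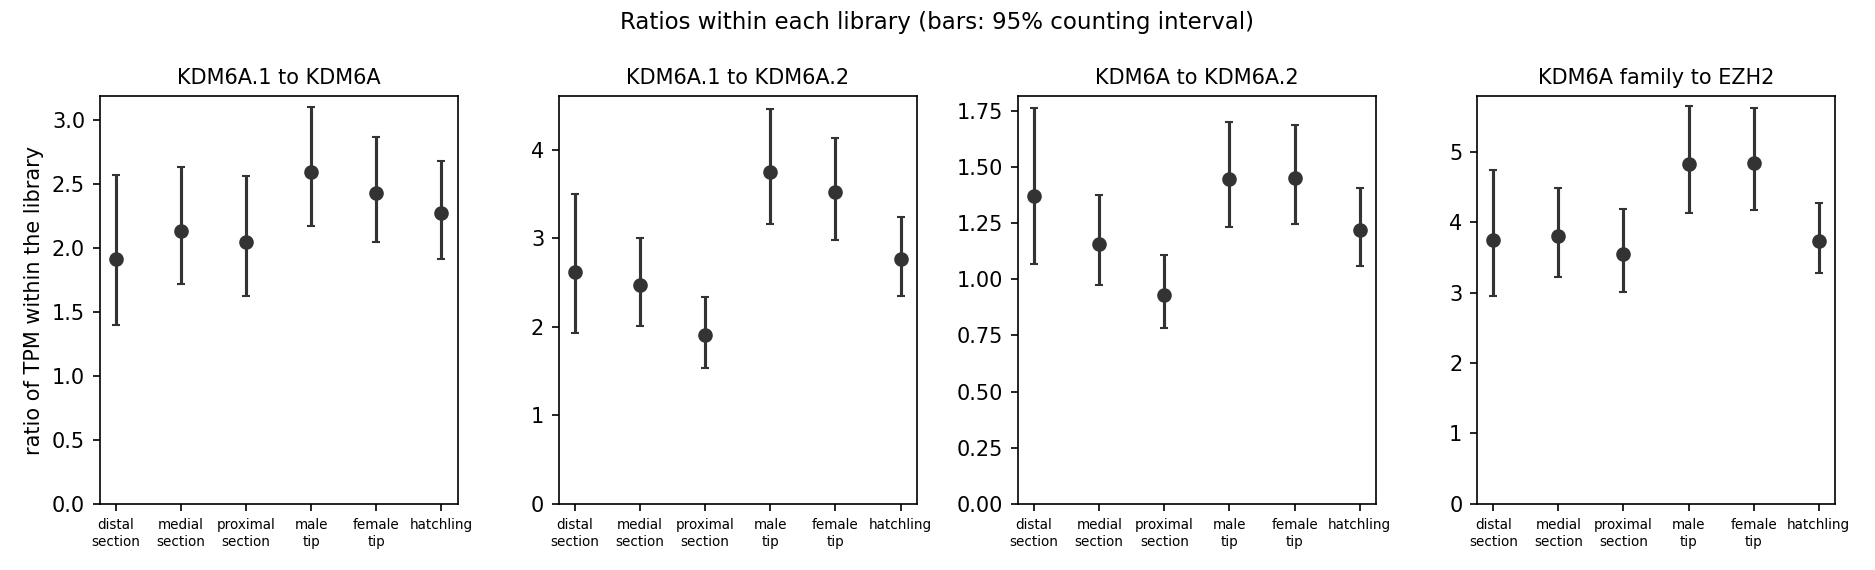
Ratio of TPM within each of the 6 libraries for KDM6A.1 to KDM6A, KDM6A.1 to KDM6A.2, KDM6A to KDM6A.2 and the summed family to EZH2, with 95% counting intervals as bars. The tips have the highest KDM6A.1 to KDM6A.2 ratios (3.75 and 3.52) and the highest ratios of the family to EZH2 (4.83 and 4.85).

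KDM6A.2 had a longer effective length in the tips than elsewhere, 4279 and 4284 bases in the male and female tips against 4079 to 4105 bases in the other libraries, and TPM is divided by this length. With the annotated length in place of the effective one, the KDM6A.1 to KDM6A.2 ratios stayed within their counting intervals in all 6 libraries. On coding TPM with annotated lengths the family remained higher in the tips than in the medial and proximal sections. KDM6A then had a log2 ratio of 0.96 and no longer passed 2-fold, while KDM6A.1 still did at 1.30.

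The 3 sections of 1 arm were compared for a change along its length. On the deposited scale the summed family had 27.8 TPM (distal), 39.9 TPM (medial) and 33.3 TPM (proximal), and in coding TPM it had 76.2, 66.3 and 63.1. The distal section was thus lowest on one scale and highest on the other. The distal over medial ratio of the sum was 0.70 (0.59 to 0.82) on deposited, 1.15 (0.97 to 1.36) on coding TPM and 0.89 with TMM, so its direction turned with the scaling. No member reached 2-fold, where 17.3% of all targets were at least 2-fold lower on the deposited scale and 16.2% of gene-model targets at least 2-fold higher on the coding scale. The median log2 ratio of gene-model targets was -0.38 on the deposited and 0.23 on the coding scale. Against these, KDM6A had -0.35 and 0.32, KDM6A.1 had -0.51 and 0.17, and KDM6A.2 had -0.55 and 0.09.

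Proximal over medial, the family sum was 0.83 (0.73 to 0.95) on deposited and 0.95 (0.83 to 1.09) on coding TPM. KDM6A had 0.81 (0.67 to 0.97) and 0.92 (0.77 to 1.11), KDM6A.1 had 0.78 (0.61 to 0.99) and 0.89 (0.70 to 1.13), and KDM6A.2 had 1.00 (0.86 to 1.17) and 1.15 (0.99 to 1.33). No member reached 2-fold, where 11.7% of all targets (deposited) and 13.6% of gene-model targets (coding) were at least 2-fold different. The KDM6A to KDM6A.2 ratio was 1.37 (distal), 1.16 (medial) and 0.93 (proximal). The distal value was 1.47 times the proximal one (95% counting interval 1.09 to 1.98), beyond counting error, while neither differed from the medial value beyond it.

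The female and male tips were close for every member. The female over male ratio was 1.15 (0.98 to 1.35) for KDM6A, 1.08 (0.90 to 1.29) for KDM6A.1 and 1.15 (0.99 to 1.33) for KDM6A.2 on deposited TPM, and each interval included 1. On coding TPM the ratios were 1.21 (1.03 to 1.42), 1.13 (0.95 to 1.36) and 1.21 (1.04 to 1.40), beside a median log2 ratio of 0.14 over gene-model targets. No member reached 2-fold, where 13.9% of all targets (deposited) and 19.3% of gene-model targets (coding) were at least 2-fold different. The KDM6A.1 to KDM6A.2 ratio differed 0.94-fold (0.74 to 1.18) between the tips. The sum of the family was 49.7 TPM (male) and 54.9 TPM (female).

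The whole hatchling was compared with the mean of the 5 arm libraries, although a whole animal holds tissues that an arm does not. The family sum was 26.8 TPM in the hatchling, and its ratio to the arm mean was 0.65 (0.60 to 0.71) on deposited TPM, 0.75 (0.69 to 0.82) on coding TPM and 1.01 (0.93 to 1.11) with TMM. No member reached 2-fold, where 24.1% of all targets (deposited) and 23% of gene-model targets (coding) were at least 2-fold lower in the hatchling. The members followed the bulk of the transcripts: on the coding scale the median log2 ratio of gene-model targets was -0.40, and KDM6A had -0.40, KDM6A.1 had -0.42 and KDM6A.2 had -0.31. KDM6A.1 to KDM6A in the hatchling was 1.03 times its geometric mean over the arm libraries (0.85 to 1.25) and KDM6A.1 to KDM6A.2 was 1.00 times it (0.83 to 1.20). The arm libraries differed among themselves, however: the hatchling value of KDM6A.1 to KDM6A.2 was 1.45 times that of the proximal section (1.12 to 1.88), 0.74 times that of the male tip (0.59 to 0.93) and 0.79 times that of the female tip (0.63 to 0.99). Its KDM6A to KDM6A.2 ratio was 1.31 times that of the proximal section (1.05 to 1.63).

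PRC2, which writes the mark that KDM6A proteins remove, was represented by EZH2, SUZ12, SUZ12.1, EED and EED.1. EZH2 had 20.3, 17.4 and 17.8 coding TPM from the distal to the proximal section, 26.8 and 31.1 in the male and female tip and 19.5 in the hatchling. It was close to KDM6A in level in every library, and KDM6A to EZH2 ran from 0.86 in the proximal section to 1.18 in the female tip. The estimated counts of EZH2 were not whole in any library, so the division of reads between targets is uncertain for it. The summed KDM6A family to EZH2 was 3.75, 3.81 and 3.55 from the distal to the proximal section, 3.74 in the hatchling, and 4.83 and 4.85 in the male and female tips. The intervals of the tips, 4.13 to 5.66 (male) and 4.18 to 5.62 (female), overlapped that of every other library. Relative to the medial and proximal sections, the tips had 1.53 times the KDM6A.1 to EZH2 ratio (1.25 to 1.86) and 1.27 times the KDM6A to EZH2 ratio (1.06 to 1.52). The corresponding factor for KDM6A.2 was 0.91 (0.77 to 1.08). Against the medial section alone, KDM6A to EZH2 was 1.18 times as high in the male tip (0.92 to 1.53) and 1.24 times in the female tip (0.96 to 1.58). Both were within counting error. Against the proximal section alone the factors were 1.31 (1.01 to 1.70) and 1.37 (1.06 to 1.76), beyond it.

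On the coding scale SUZ12, unlike EZH2, was not highest in both tips. It had 11.9, 15.7 and 17.4 coding TPM from the distal to the proximal section, 15.8 and 18.1 in the male and female tip and 13.4 in the hatchling. On deposited TPM EZH2 itself had 10.3 in the male tip, just below 10.5 in the medial section. The EZH2 log2 ratio of the tips over the medial and proximal sections was 0.11 (deposited), 0.69 (coding) and 0.23 (TMM). The tips over the medial and proximal sections gave 0.68 (0.62 to 0.75) for SUZ12 on deposited TPM and 1.03 (0.93 to 1.13) on coding TPM. SUZ12.1, with the next identifier, had estimated counts of 36.1 (distal section), 28.6 (proximal section) and 29.7 (male tip), and 0 in the other 3 libraries. SUZ12 counts were not whole in any library, so the division of reads between targets is uncertain. Whether SUZ12 and SUZ12.1 share reads was not checked. EED was shallow, with counts of 9, 23 and 25 in the sections, 27 and 10 in the male and female tips and 44 in the hatchling. EED.1, 268 bases long, had at most 12. In the tips against the medial and proximal sections 0 of 5 PRC2 transcripts were at least 2-fold higher on either scale, where 11.3% of all targets (deposited) and 29.1% of gene-model targets (coding) were, and EED.1 was at least 2-fold lower on both, where 15.5% of all targets (deposited) and 7.91% of gene-model targets (coding) were. The median log2 ratio of the list was -0.31 on the deposited and 0.15 on the coding scale.

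The KMT2C list held 3 KMT2C transcripts, named for an H3K4 methyltransferase, and ASH2L. KMT2C had 74.5, 56.0 and 64.2 coding TPM from the distal to the proximal section, 127 and 128 in the male and female tip and 39.8 in the hatchling. KMT2C.1 had 33.6, 19.9 and 28.6 in the sections, 73.4 and 89.1 in the male and female tips and 18.9 in the hatchling. KMT2C.2 had 38.8, 22.9 and 32.7 in the sections, 63.5 and 79.4 in the tips and 21.3 in the hatchling. As for KDM6A and KDM6A.1, both tips were above the other 4 libraries. The estimated counts of KMT2C.1 were not whole in any library, and those of KMT2C.2 were not whole in the hatchling. The division of reads between targets is uncertain there. The tips over the medial and proximal sections gave 1.41, 2.24 and 1.72 for KMT2C, KMT2C.1 and KMT2C.2 on deposited TPM and 2.12, 3.35 and 2.57 on coding TPM. ASH2L gave 0.71 and 1.07. Of these 4 transcripts 1 was at least 2-fold higher on the deposited scale and 3 on the coding scale, against 11.3% of all targets and 29.1% of gene-model targets, with median log2 ratios of 0.62 and 1.20 for the list.

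In the hatchling the 3 KMT2C transcripts stood lower against the arm than the KDM6A family did, while ASH2L stood higher, at 1.41 times the arm mean on coding TPM (1.15 to 1.72) and 1.80 times with TMM. The hatchling over the arm mean was 0.44, 0.39 and 0.45 for KMT2C, KMT2C.1 and KMT2C.2 on coding TPM, against 0.75 for the family sum. With TMM these were 0.59, 0.53 and 0.61, against 1.01. KDM6A to KMT2C, a ratio free of scaling that was added after the values were seen, was 0.45 in the hatchling (95% counting interval 0.40 to 0.51). It was 0.28 (distal), 0.30 (medial) and 0.24 (proximal) in the sections, and 0.24 (male) and 0.29 (female) in the tips. The interval of the hatchling did not overlap that of any arm library, of which the highest upper bound was 0.34. KDM6A.1 to KMT2C.1 was 2.15 in the hatchling (1.86 to 2.47), against 1.19 (distal), 1.78 (medial) and 1.10 (proximal) in the sections and 1.07 (male) and 1.00 (female) in the tips. The interval of the medial section (1.48 to 2.12) overlapped that of the hatchling. Neither KDM6A.1 nor KMT2C.1 had whole counts, so the division of reads between targets is uncertain for both.

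Among the other 13 histone demethylase transcripts of the same table, which act mainly on other lysines of histone H3 in vertebrates, 1 was at least 2-fold higher in the tips than in the medial and proximal sections on both scales, where 11.3% of all targets (deposited) and 29.1% of gene-model targets (coding) were. This was KDM8.1, whose estimated counts were not whole, so the division of reads between targets is uncertain. The next identifier is KDM8.2, and whether these transcripts share reads was not checked. KDM5B was at least 2-fold lower on the deposited scale only, at a log2 ratio of -1.03, where 15.5% of all targets were, and it is a model of 195 bases. The median log2 ratio of the list was -0.20 on the deposited and 0.38 on the coding scale, against 0.43 and 1.02 for the KDM6A family. Of the 2 HDAC3 transcripts, named for a histone deacetylase, none reached 2-fold, where 26.8% of all targets (deposited) and 37% of gene-model targets (coding) did in either direction.

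The transcripts whose pattern was most like each member were sought among the 110 table transcripts with at least 1 coding TPM in all 6 libraries, by Pearson's r of log2(coding TPM + 1). For KDM6A they were EZH2 (r = 0.99), SETMAR.14 (0.98) and KDM6A.1 (0.98), for KDM6A.1 they were EZH2 (0.98), KDM6A (0.98) and SMYD3.1 (0.97), and for KDM6A.2 they were SETMAR.25 (0.97), KMT2C.1 (0.96) and SETMAR.14 (0.95). These are descriptions over 6 libraries that share 1 scaling, in which 3 come from 1 arm and the tips stand apart. The median r of table transcripts was 0.83, 0.75 and 0.78 for KDM6A, KDM6A.1 and KDM6A.2, and over 21700 gene-model targets it was 0.50, 0.46 and 0.48. Over the 4 libraries without the tips, an alternative added after the values were seen, KDM6A and EZH2 had r = 0.89 and KDM6A and KDM6A.1 had 0.84, while KDM6A and KDM6A.2 fell from 0.91 to -0.30. KDM6A with SETMAR.14 had 0.98, KDM6A.1 with EZH2 0.83, and KDM6A.2 had 0.74 with SETMAR.25 and 0.70 with KMT2C.1. Lower values were 0.41 for KDM6A.1 with SMYD3.1, -0.36 for KDM6A.2 with SETMAR.14 and -0.62 for KDM6A.1 with KDM6A.2. The ranking depended on the scale. On deposited TPM EZH2 was number 26 for KDM6A (r = 0.92) and number 25 for KDM6A.1 (0.87), while the other transcripts named for these members stayed among the first 5. For KDM6A.2, SETMAR.25, KMT2C.1 and SETMAR.14 moved to numbers 29, 46 and 47, with r of 0.76, 0.70 and 0.70.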

How the data were processed

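Ribosomal RNA was depleted and paired-end reads were sequenced. The authors trimmed reads with Trimmomatic (version 0.36, per the submitters' processing notes, which also name FastQC 0.11.5), clipped poly-G ends in the hatchling library, and quantified transcripts with kallisto and its bias correction, whose version is not given in the sources used here. The deposited files hold, per target, an estimated count, the length, the effective length and the TPM, which the authors' tool computed from count and effective length over all 40327 targets. Recomputing TPM from these columns gave the deposited values.

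Samples were grouped by the labels, and the animals' identifiers come from the study's sample table. Deposited TPM, as used in the study, was the main scale. Coding TPM was recomputed over 38556 gene-model targets, leaving out 1771 non-coding ones, and TMM factors were computed with edgeR 4.0.16 in R 4.3.3 on rounded estimated counts. No test was run, because each condition is 1 library. Intervals (95%) are Wilson for levels, Clopper-Pearson for ratios of 2 transcripts within a library and Poisson-based for ratios of mean or summed TPM. The last replaced an interval on summed counts, because the members differ in length. They cover counting error only, and not the division of reads between targets. A difference counted as 2-fold on log2(TPM + 1), with at least 1 TPM on either side. The calculation was checked on simulated data. Python 3.11.15 and scipy 1.17.1 were used.

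The members and the lists beside them were chosen with earlier results of these data known. Members and the transcripts of the PRC2 and KMT2C lists were named in full. Of the other demethylases only KDM8.1, KDM8.2 and KDM5B were named. The 3 most alike table transcripts were named per member. Names come from the study's gene table, of which 150 transcripts were used. No sequence or coordinate is printed.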

Additional observations from a re-analysis of the deposited data

How the results depend on the processing

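Values here are log2 ratios of the summed family with 1 TPM added. For the tips over the medial and proximal sections, the deposited scale gave 0.50. Coding TPM gave 1.10, leaving out the 10 most abundant targets 0.89, leaving out effective lengths under 300 bases 1.11 and annotated lengths 1.08, and leaving out each library in turn gave 0.38 to 0.64. For the distal over the medial section, -0.50 became 0.20, -0.16, 0.065 and 0.11 under the same settings and -0.17 with TMM. For the hatchling over the arm libraries, -0.60 became -0.41, -0.37, -0.41 and -0.42, and 0.019 with TMM, with -0.71 to -0.48 when each arm library was left out. The scaling settings change the total that levels are divided by or its weights. Annotated lengths also change the length that each member is divided by, and leaving out a library changes which libraries are averaged. No other cause was tested. The tips over the distal section stayed between 0.75 and 0.99, and no setting shifted the proximal over medial or female over male value beyond counting error. Of the 36 alternatives run for each single member, 10 (KDM6A), 9 (KDM6A.1) and 13 (KDM6A.2) moved the value beyond counting error. With a 1.5-fold in place of a 2-fold call, the share of all targets past it in either direction was 50.4% in place of 26.8% for the tips over the medial and proximal sections, 47.5% in place of 24.6% over the distal section, 46.6% in place of 23.2% for the distal and 23.1% in place of 11.7% for the proximal over the medial section, 28.0% in place of 13.9% between the tips and 56.1% in place of 29.2% for the hatchling. Without a minimum level the 2-fold share was 15.4% (distal) and 7.75% (proximal) over the medial section, and with a minimum of 10 TPM 7.02% (proximal). For the tips over the medial and proximal sections it was 18.8% without a minimum and 40.2% with a minimum of 10 TPM. For the hatchling these shares were 19.8% and 38.7%. No paired analysis was possible because each condition is 1 library. The distal section, with the fewest counts, has the widest intervals.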

Other observations

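Within PRC2, the balance of EZH2 to the sum of SUZ12 and SUZ12.1, added after the values were seen, was 0.96 in the proximal section (95% counting interval 0.82 to 1.13) and 1.11 in the medial section (0.94 to 1.30). It was 1.35 in the distal section (1.06 to 1.73), 1.54 in the male tip (1.30 to 1.83), 1.71 in the female tip (1.45 to 2.02) and 1.46 in the hatchling (1.27 to 1.68). SUZ12 and SUZ12.1 were summed because the division of reads between targets is uncertain for them. This ratio is free of scaling, and the intervals of both tips lay above those of the proximal section, as did that of the hatchling.

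The paired identifiers KDM8.1 and KDM8.2, named for a further member of the Jumonji family, stood in opposite order in the tips. The male tip had estimated counts of 487 and 132 for KDM8.1 and KDM8.2, and the female tip had 183 and 386. In the hatchling KDM8.2 had 338 and KDM8.1 practically none. In the distal, medial and proximal sections KDM8.1 had 136, 106 and 92.6 and KDM8.2 had 103, 246 and 292. Neither transcript had whole counts in any of these libraries, so the division of reads between targets is uncertain, and no test was made.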
